A study of Mus musculus with 18 samples.

Results

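Cortex in which light had set off spreading depolarization (SD) was compared with cortex of sham mice carrying the same light-gated channel. SD travels slowly across the cortex and depolarizes the neurons and glia in its path almost completely. It is the electrical event behind the migraine aura. The comparison takes 6 of the study's 18 samples, 3 libraries of the SD hemisphere and 3 of sham cortex, and all 13152 genes listed for that pair of groups, of 13479 listed anywhere in the series. All of these mice were healthy females on C57BL/6, aged 7 to 8 weeks and heterozygous for Thy1-ChR2-YFP, and the sham mice carried this transgene too. It places channelrhodopsin-2, a light-gated cation channel fused to a yellow fluorescent protein, under the Thy1 promoter, which drives it in neurons. The SD mice received light of 2 mW for 20 s and had 4 SDs over 2 h, 30 min apart, followed by imaging of the intrinsic optical signal. The sham mice are labelled only as sham, and no light is given for them, so the effects of light and of SD cannot be told apart. Neither the time between the last SD and tissue collection nor the hemisphere taken from sham mice is given in the sources used here. The left hemisphere is the SD side, and the right hemisphere of the same 3 mice, called contralateral here, gives a second reference. Each library comes from 1 mouse, so n = 3 mice per group throughout.

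Neurons answer strong activity with a fixed sequence of transcription. Calcium entry and MAP kinase signalling phosphorylate factors already bound to DNA, CREB at cAMP response elements (CRE) and SRF with its partners at CArG boxes, and immediate early genes are transcribed within minutes, without new protein. Their products are transcription factors of the Fos, Jun, Egr, Nr4a and Npas families, proteins that act at synapses, and inhibitors that shut the signal down. Late genes such as Bdnf follow under the control of those factors.

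Of 12989 genes tested, 53 were higher in the SD hemisphere than in sham at an adjusted p under 0.05 (0.408%) and 9 were lower (0.0693%). The test was limma on log2(FPKM + 0.5), where FPKM is the number of fragments scaled to transcript length and to the mapped fragments of the library, with Benjamini-Hochberg adjustment over all tested genes. Every adjusted p below comes from it, and fold changes are on that scale, where the added 0.5 shrinks the change of weakly expressed genes. A gene is called, and is said to have risen or fallen, only if it passed. At an unadjusted p under 0.05, 483 genes were higher (3.72%) and 652 lower (5.02%). Every SD library lay above every sham library in 785 genes (6.04%) and below in 1106 (8.51%). The median log2 fold change of all tested genes was -0.017. In each of the 62 called genes the SD and sham libraries did not overlap. Of the 53 rises, 31 were at least 2-fold, and in all 53 the SD libraries also lay above all 3 contralateral libraries. The share of all tested genes in that position was not computed, and the contralateral libraries entered the fit, so that count has no reference. The remaining 163 listed genes had a mean under 0.5 FPKM over the 9 optogenetic libraries and were not tested.

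Single libraries carried weight in these counts. Without SD replicate 3 there were 38 called genes, 37 of them among the 62, and without sham replicate 2 there were 39, 36 of them among the 62. A total of 33 calls, 29 higher and 4 lower, stood in each of the 9 fits that left out 1 library. Sham replicate 3 was the highest sham library in 39 of the 53 genes that rose, against 33.5% of all tested genes. Without it 62 genes were called, 52 of them the same, so the number of calls did not hang on it. SD replicate 3 was the highest SD library in 38 of the 53, against 32.9% of all tested genes. SD replicate 1 was the highest in 1, against 31.9%. Leaving out contralateral replicate 1, 2 or 3 does not alter the fold changes, yet it ended 9, 11 and 10 of the 62 calls. Across genes, log2 values of pairs among the 6 libraries correlated at 0.975 to 0.986, the summed FPKM of the 9 optogenetic libraries ran from 217178 to 225771, and 11694 to 12030 genes per library reached 1 FPKM. No read counts are given, so the depth is unknown.

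Markers of cortical neurons and glia were present in both groups. Slc17a7, the vesicular glutamate transporter of excitatory neurons, was at 120, 114 and 117 FPKM in the SD libraries and at 125, 106 and 109 in sham. The 14 tested excitatory markers summed to 1335 to 1363 FPKM after SD and to 1357 to 1401 in sham, and the 14 inhibitory markers to 573 to 633 and 565 to 580. Astrocyte markers summed to 1003 to 1033 FPKM after SD and to 1030 to 1137 in sham, and oligodendrocyte and myelin markers to 680 to 845 and 711 to 966. Neighbouring tissue was present in unequal amounts. Ttr, the transthyretin of the choroid plexus, was at 5.07, 465 and 7.06 FPKM in the SD libraries, at 597, 23.4 and 395 in the contralateral ones and at 311, 2.57 and 1088 in sham. Choroid plexus RNA thus varied from library to library within each group, and 0 of 9 tested markers were called or had an unadjusted p under 0.05 in limma. Striatal, hippocampal and thalamic markers summed to 247, 286 and 172 FPKM after SD and to 138, 317 and 222 in sham, with 0 of 15 called and 0 at that unadjusted p. Red blood cell genes were lower after SD, as the plot of summed marker levels shows, and are described further on. A bulk library cannot tell fewer cells of a type from less RNA per cell.

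**Figure D1:**
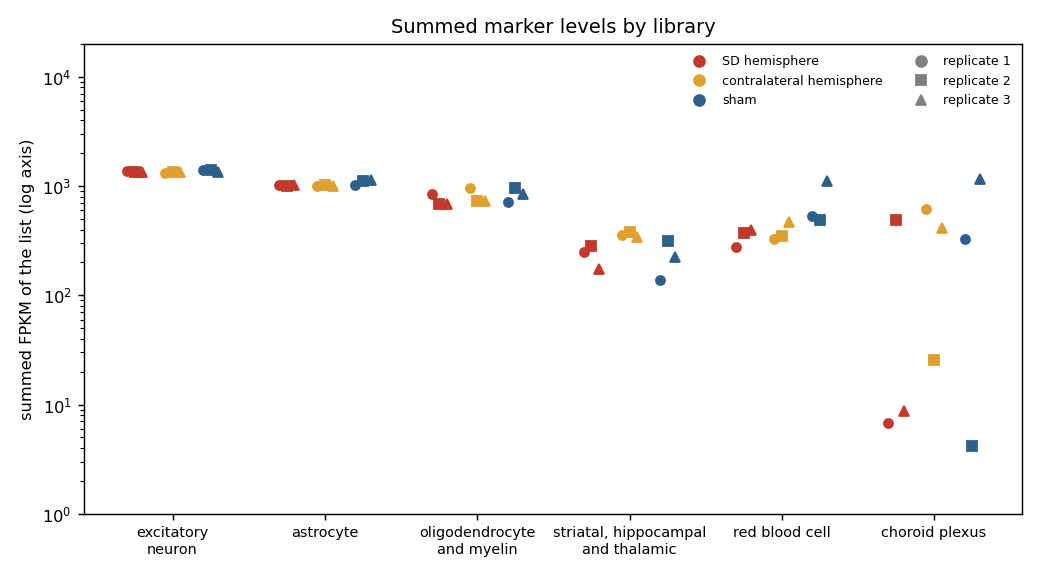
Summed FPKM (log axis) of 6 marker lists in each of the 9 optogenetic libraries. Each point is 1 library, colours give the group and shapes the replicate number. Excitatory neuron and astrocyte sums lie close together, while choroid plexus sums run from 4.15 to 1152 FPKM within sham alone.

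Promoters of 6 genes that rose are shown because each carries at least the core letters of a CRE, a motif through which activity is known to reach this class of gene. Dusp1 and Btg2 hold the full CRE, and Egr2 a CArG box as well. Each is the 250 bases before the annotated start, read 5′ to 3′ in the direction of transcription, from RefSeq on GRCm38.p6. Capitals mark TGACG (the core of a CRE) and the full CRE TGACGTCA on either strand, the CArG box, and TATAAA on either strand. Npas4 lies on the minus strand (chr19:4989972-4990221), Fos on the plus strand (chr12:85473640-85473889), Junb on the minus strand (chr8:84978749-84978998), Egr2 on the plus strand (chr10:67537619-67537868), Dusp1 on the minus strand (chr17:26508473-26508722) and Btg2 on the minus strand (chr1:134079156-134079405). For Egr2, with 5 RefSeq start sites, the window with the most of these motifs was taken.
Npas4: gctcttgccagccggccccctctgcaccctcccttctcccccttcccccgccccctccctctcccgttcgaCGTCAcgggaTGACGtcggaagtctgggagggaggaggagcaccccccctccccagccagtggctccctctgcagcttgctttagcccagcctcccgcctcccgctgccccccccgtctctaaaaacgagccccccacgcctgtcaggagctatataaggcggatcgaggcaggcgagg
Fos: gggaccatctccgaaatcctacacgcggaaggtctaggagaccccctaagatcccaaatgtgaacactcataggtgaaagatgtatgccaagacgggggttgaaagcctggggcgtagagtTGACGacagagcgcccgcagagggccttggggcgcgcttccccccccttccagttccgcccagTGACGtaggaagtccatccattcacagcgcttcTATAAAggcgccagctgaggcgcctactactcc
Junb: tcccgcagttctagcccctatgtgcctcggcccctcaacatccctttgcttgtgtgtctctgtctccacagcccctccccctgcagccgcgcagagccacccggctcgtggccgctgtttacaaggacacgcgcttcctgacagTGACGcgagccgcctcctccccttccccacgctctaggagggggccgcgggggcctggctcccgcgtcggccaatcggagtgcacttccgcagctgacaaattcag
Egr2: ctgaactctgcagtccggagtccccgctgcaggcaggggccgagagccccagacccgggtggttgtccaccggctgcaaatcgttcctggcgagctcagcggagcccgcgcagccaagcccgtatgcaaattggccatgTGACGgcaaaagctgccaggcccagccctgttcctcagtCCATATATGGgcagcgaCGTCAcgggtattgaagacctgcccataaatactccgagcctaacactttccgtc
Dusp1: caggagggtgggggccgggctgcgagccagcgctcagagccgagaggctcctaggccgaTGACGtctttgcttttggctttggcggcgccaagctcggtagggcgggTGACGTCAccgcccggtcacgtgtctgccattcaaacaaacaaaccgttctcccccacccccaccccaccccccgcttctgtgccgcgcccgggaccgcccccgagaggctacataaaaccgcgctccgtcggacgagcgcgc
Btg2: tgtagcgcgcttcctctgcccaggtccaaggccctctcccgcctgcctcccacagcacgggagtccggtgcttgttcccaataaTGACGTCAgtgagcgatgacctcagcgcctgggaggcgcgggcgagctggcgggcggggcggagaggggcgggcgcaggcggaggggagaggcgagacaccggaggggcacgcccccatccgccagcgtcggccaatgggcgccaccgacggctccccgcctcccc
In Npas4 the CRE cores sit as a pair in opposite orientations, 179 and 169 bases before the start. Fos has cores at 129 and 66 bases and TATAAA at 33 bases before its start. Dusp1 and Btg2 carry the full palindrome at 143 and 166 bases. Egr2 has the CArG box CCATATATGG at 72 bases, between a core at 111 and another at 55 bases before the start.

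Over the 300 bases from 250 before to 50 after the start, RefSeq windows matched 43 of the 53 genes that rose and 10238 of the 12989 tested. TGACG on either strand occurred in 28 of the 43 (65.1%) and in 35.5% of all tested genes with a window. The full CRE, which contains TGACG, occurred in 5 of 43 (11.6%), namely Arl4d, Btg2, Dusp1, Errfi1 and Plk2, and in 3.61% of all. The CArG box was in 3 (6.98%), Dusp5, Egr2 and Rnd3, against 1.59% of all, and the E-box CACGTG was in 25.6% against 11.7%. TATAAA was in 25.6% against 8.7%. For the Egr site GCGNGGGCG the shares were 14% and 13%, and for the AP-1 site TGANTCA 2.33% and 5.82%. These are descriptions of letters in a window and no test was made. Motifs further upstream were not searched, and Arc, Egr1 and Ier2 are among the genes without a window. A motif not found here may thus still be present. Of the 9 genes that fell, 6 had a window, so that a comparison of motifs is void for them.

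Immediate early transcription factors held the largest rises. Of 27 tested, 12 were called higher and 0 lower, and the median log2 fold change was 1.08. At an unadjusted p under 0.05, 21 were higher and 2 lower. Npas4 (ENSMUSG00000045903.8, chromosome 19, 4984355 to 4989971), a factor induced by calcium entry alone, was at 181, 240 and 256 FPKM in the SD libraries. In the contralateral libraries it was at 1.38, 1.56 and 1.75 FPKM and in sham at 1.99, 1.41 and 9.9. Every SD library thus stood far above every other library, and sham replicate 3 stood above the other sham libraries. The log2 fold change was 5.93 (standard error, SE, 0.52, adjusted p = 0.00167), or 60.8-fold.

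Fos (ENSMUSG00000021250.13, chromosome 12, 85473890 to 85477273), the AP-1 subunit used most as a marker of active neurons, was at 137, 193 and 207 FPKM after SD and at 9.19, 5.89 and 23.1 in sham. It rose by 3.96 on the log2 scale (SE 0.40, adjusted p = 0.00331), and the contralateral libraries, at 6.69 to 7.64 FPKM, overlapped sham. Its partner Fosb was at 33.1, 43.1 and 46.9 FPKM after SD and at 2.67, 1.82 and 11.7 in sham, a rise of 3.20 (SE 0.51, adjusted p = 0.0373). The AP-1 subunit Junb varied least among the Fos and Jun genes that rose, with SD libraries at 142, 149 and 179 FPKM and sham libraries at 28.2, 23 and 30.2. Its log2 fold change was 2.51 (SE 0.12, adjusted p = 4.83e-05). Jun rose by 1.17 (SE 0.16), while Fosl2 (1.08, adjusted p = 0.124) and Jund (0.26, adjusted p = 0.434) did not pass.

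Of the zinc finger factors of the Egr family, 3 were called. Egr2 was at 11.9, 9.03 and 14.3 FPKM after SD and at 1.48, 0.807 and 2.91 in sham (log2 fold change 2.54, SE 0.31). Egr4 rose by 2.25 (SE 0.30) and Egr1, already at 43.9 to 67.8 FPKM in sham, by 1.92 (SE 0.14). Egr3 was at 67.1, 56.3 and 81.7 FPKM after SD and at 38.1, 22.5 and 36.5 in sham, which do not overlap, but its adjusted p was 0.211. Of the orphan nuclear receptors, Nr4a1 went from 22.1, 16.3 and 26 FPKM in sham to 113, 132 and 161 after SD (2.64, SE 0.20, adjusted p = 0.00098). Nr4a2, at 12 to 14.2 FPKM after SD, overlapped its sham libraries at 6.89 to 12.7, and Nr4a3 had a log2 fold change of 0.94 (adjusted p = 0.312). Whether Nr4a1 changed more than its relatives was not tested. Klf6 (1.39), Ier2 (1.58) and Ier5 (0.55) rose as well.

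Members that did not pass include the stress factor Atf3, at 2.34, 3.27 and 4.56 FPKM after SD and 0.879, 0.669 and 1.54 in sham (adjusted p = 0.0921). The members below sham at an unadjusted p under 0.05 were both Krüppel-like factors. Klf10, a TGF-beta-induced repressor, was at 8.05, 6.16 and 6.01 FPKM after SD and at 9.64, 10 and 12 in sham (log2 fold change -0.62, adjusted p = 0.0921). Klf2, a factor of endothelial cells that responds to blood flow, was at 5.08, 7.18 and 6.8 FPKM after SD and at 10.1, 9.24 and 8.76 in sham (-0.54, adjusted p = 0.388). In neither gene did the groups overlap. The calls of Fosb, Egr4, Jun and Ier5 ended when a library was left out, with the adjusted p reaching 0.163 for Fosb without SD replicate 3. For Egr4 it reached 0.0715 without sham replicate 1, for Jun 0.0869 without sham replicate 2 and for Ier5 0.0591 without SD replicate 3.

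**Figure D2:**
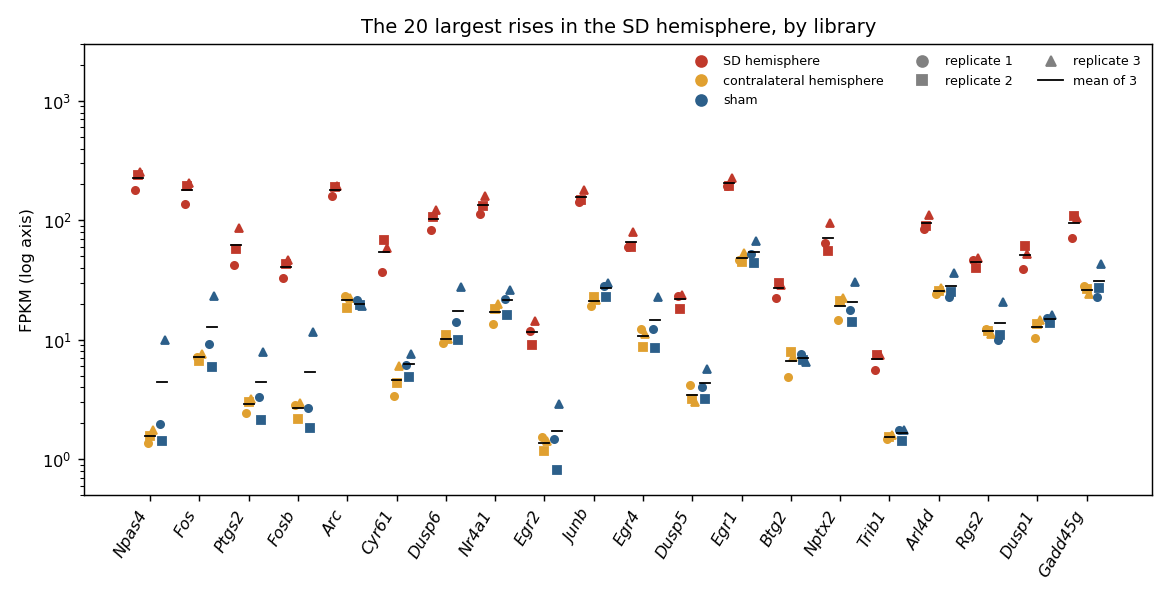
FPKM (log axis) of the 20 genes with the largest rises, by library. Points are libraries, colours the 3 groups, shapes the replicate numbers and black lines the mean of 3 mice. All SD libraries lie above all contralateral and sham libraries, and in Npas4, Fos and Fosb sham replicate 3 lies above the other sham libraries.

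Effectors that act at synapses and dendrites rose in part. Of 18 tested, 3 were called higher and 0 lower, 9 were higher and 0 lower at an unadjusted p under 0.05, and the median log2 fold change was 0.42. Arc (ENSMUSG00000022602.14, chromosome 15, 74669083 to 74672570), which removes AMPA receptors from synapses, was at 159, 191 and 194 FPKM after SD. Its other libraries were even, at 23.4, 18.5 and 22.5 FPKM contralaterally and 21.5, 19.5 and 19.2 in sham. Of all genes tested it had the lowest adjusted p, 3.94e-06, with a log2 fold change of 3.14 (SE 0.10). Nptx2, a secreted pentraxin that clusters AMPA receptors on interneurons, was at 64.2, 55.4 and 96.1 FPKM after SD and at 18, 14.1 and 30.5 in sham (1.80, SE 0.30, adjusted p = 0.0454). The kinase Plk2, which weakens synapses after long activity, was at 73.9, 87.7 and 84.4 FPKM after SD and at 39.1, 38.1 and 44.7 in sham (2-fold, log2 SE 0.08, adjusted p = 0.00116).

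Several effectors lay close to the threshold. Fbxo33, a ubiquitin ligase subunit, was at 8.61, 16.8 and 10.3 FPKM after SD and 4.33, 4.22 and 2.92 in sham (adjusted p = 0.0512), and Plk3 and Rheb had adjusted p values of 0.063 each. Homer1, a postsynaptic scaffold with a short activity-induced form, was at 29.4, 30.1 and 51.1 FPKM after SD and at 27.1, 15 and 28.1 in sham (0.65, adjusted p = 0.59), and gene-level values do not separate its forms. Nptx2 stayed called in a single one of the 9 fits without a library, its adjusted p reaching 0.163 without SD replicate 3.

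Brakes on MAP kinase signalling rose along with the factors that this signalling induces. Of 16 tested, 7 were called higher and 0 lower, 10 were higher at an unadjusted p under 0.05, and the median log2 fold change was 0.41. Dusp6 (ENSMUSG00000019960.8, chromosome 10, 99263231 to 99267489), a cytoplasmic phosphatase that inactivates ERK, was at 83, 106 and 122 FPKM after SD and at 14.1, 10 and 27.9 in sham (2.65, SE 0.31, adjusted p = 0.00638). Dusp5, the nuclear ERK phosphatase, was at 23.5, 18.3 and 23.7 FPKM after SD and at 4.07, 3.18 and 5.72 in sham (2.23, SE 0.19). Dusp1, which acts on p38 and JNK as well, was at 39.1, 60.7 and 52.8 FPKM after SD and 15.1, 13.7 and 16.2 in sham (1.71, SE 0.17). In all 3 phosphatases the groups were separate and the contralateral libraries did not lie above sham.

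Dusp4 rose by 1.25 and Dusp14 by 0.91. Upstream of ERK, Spry2, a receptor tyrosine kinase antagonist, was at 29.4, 32.7 and 38.7 FPKM after SD and at 16.7, 13.6 and 13.6 in sham (1.17, SE 0.14). Errfi1, an inhibitor of the EGF receptor that glucocorticoids also induce, rose by 0.85 and was the 1 called member among 14 glucocorticoid-responsive genes. Spry1 (0.34), Spry4 (0.47) and Dusp10 (0.32) had adjusted p values of 0.246, 0.507 and 0.522. The call of Errfi1 ended without SD replicate 3 (adjusted p = 0.052) and without sham replicate 2 (0.0568).

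G protein regulators and small GTPases had 4 called members of 22 tested, all higher, and a median log2 fold change of 0.15. At an unadjusted p under 0.05, 7 were higher and 2 lower. Arl4d, a small GTPase of the Arf family, was at 85.1, 89.2 and 110 FPKM after SD and at 23, 25.2 and 36.2 in sham (1.75, SE 0.16, adjusted p = 0.0019). Rgs2, which speeds the shut-off of Gq-coupled receptors, was at 46.4, 40.1 and 48.9 FPKM after SD and 9.94, 11 and 20.8 in sham (1.73, SE 0.23). Both were more than 3-fold higher after SD, with sham replicate 3 the highest sham library. Rgs4, an abundant cortical relative, was at 186, 215 and 207 FPKM after SD and at 129, 125 and 144 in sham (0.61, SE 0.10, adjusted p = 0.0408). Rnd3, an atypical small G protein without GTPase activity, rose by 0.95 (adjusted p = 0.0499). The adjusted p of Rgs2 reached 0.0662 and that of Rgs4 0.182 without SD replicate 3, and that of Rnd3 0.196 without sham replicate 2. On the beta1 adrenergic receptor Adrb1, a Gs-coupled receptor on none of the lists, the SD libraries were at 15.1, 17.2 and 18.6 FPKM and the sham libraries at 5.72, 5.16 and 6.85 (1.45, SE 0.13, adjusted p = 0.00167).

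A list named for genes that slow proliferation or mark growth arrest in dividing cells had 5 called members of 22, all higher. Its median was 0.38, and 12 were higher and 1 lower at an unadjusted p under 0.05. The name is a label, and what each member, Trib1 included, does to proliferation was not examined. Btg2, a cofactor of mRNA deadenylation, was at 22.2, 30.1 and 29.1 FPKM after SD and at 7.58, 6.83 and 6.59 in sham (1.87, SE 0.17). Trib1, a pseudokinase that directs proteins to degradation, was at 5.64, 7.5 and 7.53 FPKM after SD and at 1.78, 1.42 and 1.75 in sham (1.78, SE 0.12, adjusted p = 0.000591). Both had even sham libraries. Gadd45g (1.62), Ifrd1 (0.99) and Btg1 (0.76) rose too, and Tob1 (0.76) was at an adjusted p of 0.0652. Gadd45g lost its call without sham replicate 2 (adjusted p = 0.0869) and Ifrd1 without sham replicate 1 (0.0763). Among 22 genes of the CREB pathway and cAMP feedback, 1 was called, the clock gene Per1, and the median was 0.12. Of these 22, 7 were higher and 1 lower at an unadjusted p under 0.05. Creb1 itself was at 4.53, 5.05 and 4.93 FPKM after SD and at 4.18, 3.77 and 4.56 in sham (0.20, adjusted p = 0.55).

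Of 27 secreted and neurotrophic factors 0 were called in limma, 4 were higher and 1 lower at an unadjusted p under 0.05, and the median was 0.14. Bdnf, the neurotrophin that Npas4 and CREB induce, was at 7.73, 11.2 and 16.5 FPKM after SD, at 4.71, 6.01 and 7.02 contralaterally and at 5.11, 4.06 and 7.08 in sham. The SD libraries all lay above sham, but they differed among themselves more than the sham libraries did, and the log2 fold change of 1.02 (SE 0.27) had an adjusted p of 0.312. Vgf, a neuropeptide precursor, overlapped between the groups, at 64.3, 87.3 and 30.9 FPKM after SD and 58.3, 17.8 and 18.6 in sham. Of 22 late activity-regulated genes of cortex, 3 were called higher (Nptx2, Trib1 and Kcnj2), 11 were higher at an unadjusted p under 0.05 and the median was 0.51.

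Ptgs2 (ENSMUSG00000032487.8, chromosome 1, 150100031 to 150108227), the inducible cyclooxygenase that makes prostaglandin precursors, had the third largest rise. It was at 42.2, 57.4 and 86.1 FPKM after SD, at 2.46, 3.03 and 3.23 contralaterally and at 3.32, 2.15 and 7.94 in sham (3.76, SE 0.39, adjusted p = 0.00393). The lowest SD library was above 5 times the highest sham library. It was the 1 called member of 10 tested genes of prostaglandin synthesis and reception. The constitutive cyclooxygenase Ptgs1 was at 2.94, 3.24 and 3.65 FPKM after SD and at 3.13, 3.05 and 3.42 in sham (0.03, adjusted p = 0.955), and Ptges, a terminal prostaglandin E synthase, had a log2 fold change of -0.08 (adjusted p = 0.861).

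Of 19 matrix genes, 2 of the CCN family were called. Cyr61 (ENSMUSG00000028195.4, chromosome 3, 145646976 to 145649981), a secreted integrin ligand, was at 37.1, 68.1 and 59.1 FPKM after SD and at 6.16, 4.91 and 7.66 in sham (3.01, SE 0.26, adjusted p = 0.00167). Its relative Ctgf rose by 0.59 (SE 0.10, adjusted p = 0.049), a call that ended without SD replicate 3 (adjusted p = 0.212). Their SD libraries stood above all contralateral libraries too.

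Smaller groups held 1 or 2 calls each. Among 20 clock genes, Per1, a light- and activity-induced clock repressor, was at 26.4, 26.8 and 39.3 FPKM after SD and at 16.6, 13.9 and 15.9 in sham (0.95, SE 0.15, adjusted p = 0.0289), and Cry2 rose by 0.31. The adjusted p of Per1 reached 0.133 and that of Cry2 0.131 without sham replicate 2. Of 21 heat shock chaperones, Dnajb5 and Dnajb1, co-chaperones of Hsp70, rose by 0.57 and 0.51, while the inducible Hsp70 gene Hspa1a, a near-identical neighbour of Hspa1b, was at 5.14, 5.62 and 5.88 FPKM after SD and at 4.76, 4.46 and 5.35 in sham (0.18, adjusted p = 0.636). Cited2, a coregulator that restrains HIF-1, was the 1 called gene of 19 in the hypoxia list, at 11, 14.8 and 13.3 FPKM after SD and 4.08, 6.51 and 4.68 in sham (1.29, SE 0.17), and without SD replicate 3 its adjusted p was 0.0591. The median of that list was -0.02. Nfkbiz, an atypical nuclear IkappaB protein, was the 1 called gene among 15 tested cytokine, chemokine and NF-kappaB genes, at 2.17, 2.5 and 2.62 FPKM after SD and 0.989, 1.04 and 1.09 in sham (0.93, SE 0.09, adjusted p = 0.00332). At an unadjusted p under 0.05, 3 of those 15 were lower. Of the 20 clock genes 5 were higher and 1 lower at that p, and of the 21 chaperones 4 were higher and 0 lower.

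Channels, pumps and receptors, which carry the ion fluxes of SD, were nearly without calls. Kcnj2 (ENSMUSG00000041695.2, chromosome 11, 111066164 to 111076821), the inward rectifier Kir2.1, was at 4.72, 7.05 and 6.4 FPKM after SD and at 2.14, 2.33 and 1.99 in sham (1.29, SE 0.14, adjusted p = 0.00425), the 1 call among 11 inward rectifiers. Kcnj10, the glial Kir4.1 that buffers extracellular potassium, was at 35.3, 37.7 and 39.1 FPKM after SD and at 34.5, 41.6 and 45.1 in sham (-0.10, adjusted p = 0.797). In limma 0 of 37 other potassium channel genes, 25 sodium and calcium channel genes, 21 pump and cation-chloride cotransporter genes and 35 glutamate and GABA receptor genes were called. At an unadjusted p under 0.05 these lists had 3 and 2, 1 and 0, 0 and 2, and 0 and 0 members higher and lower. Of 9 hemiplegic migraine and aura genes 0 were called and 1, Slc4a4, was lower at that p. Cacna1a, the P/Q-type calcium channel, had a log2 fold change of -0.04 (SE 0.09).

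**Figure D3:**
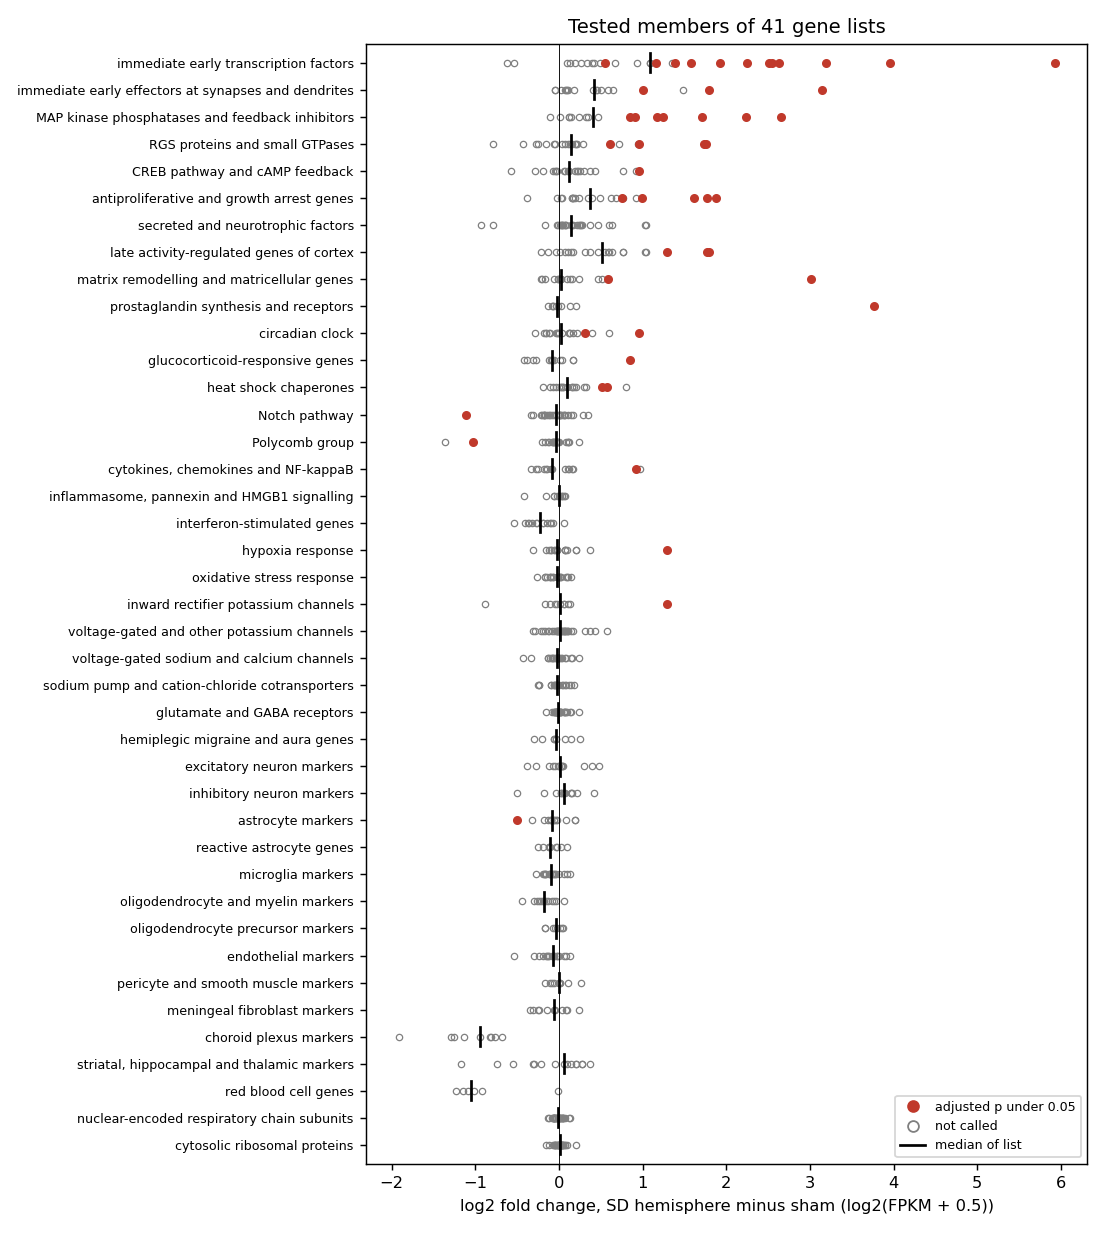
Log2 fold changes (SD hemisphere minus sham) of the tested members of 41 lists, 1 point per gene, with called genes in red and the list median as a black line. Red points gather in the immediate early and MAP kinase feedback lists, and medians of most other lists lie near the -0.017 of all tested genes, with red blood cell and choroid plexus genes below it.

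Called genes outside the lists added further roles. Flrt3, an adhesion protein that binds latrophilins across the synapse, was at 6.74, 11.8 and 11.7 FPKM after SD and at 4.27, 3.51 and 4.52 in sham (1.16, SE 0.19, adjusted p = 0.0381). The insulin signalling genes Irs2 and Pik3r1 rose by 0.72 and 0.40. Cited4 (0.81), the transcriptional corepressor Irf2bp2 (0.87), the deubiquitinase Otud1 (0.83) and the zinc finger factor Zfp281 (0.48) rose too. Chp1, a cofactor of sodium-proton exchangers, had a small rise of 0.33 (SE 0.04) with tight libraries. It was at 19.8, 18.8 and 19.3 FPKM after SD, 16.4 to 16.6 contralaterally and 15.7, 14.9 and 15.2 in sham. Contralateral libraries lay above all sham libraries in 2 of the 53 rises, Chp1 and Rnd3, and below all of them in 3. Shares of all tested genes in these positions were not computed. The last 2 called genes outside the lists are Gm13889 (1.37) and A830010M20Rik (0.44), named for their clones. Beside Zfp281 and Irf2bp2, calls ended without a library for each of these, with the highest adjusted p at 0.168 for Flrt3 and 0.17 for Pik3r1, both without sham replicate 2.

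The genes that rose were short. Their median span was 5799 bp against 25215 bp over all tested genes, and 36 of 53 (67.9%) spanned under 10 kb against 24.1%. The median number of exons of the longest transcript was 4 against 9, while the median length of that transcript was 2996 bases against 3225. Their median sham level, 12.9 FPKM, lay above the 5.86 of all tested genes. These are descriptions without a test.

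The 9 genes that fell were of 2 kinds when the contralateral hemisphere is set beside them. In 6 of them, Hes1, Cbx2, Insm1, Clcn6, Gja1 and Smarcd2, the SD libraries lay below all contralateral and all sham libraries. In Mid1, Stim1 and Ucma the contralateral libraries also lay below all sham libraries and overlapped the SD libraries. Shares of all tested genes in these positions were not computed.

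Hes1 (ENSMUSG00000022528.7, chromosome 16, 30064384 to 30067796), a repressor and the classical target of Notch, was at 3.19, 4.88 and 3.23 FPKM after SD, at 8.38, 9.87 and 7.6 contralaterally and at 8.45, 9.43 and 7.9 in sham (-1.11, SE 0.15, adjusted p = 0.0154). It was the 1 call among 29 tested Notch genes, whose median was -0.03, with 1 higher and 5 lower at an unadjusted p under 0.05. Cbx2, a chromatin-binding Polycomb subunit, was at 0.601, 0.393 and 0.355 FPKM after SD and at 1.28, 1.73 and 1.27 in sham (-1.02, SE 0.14), the 1 call among 23 Polycomb genes. Insm1, a zinc finger factor of neuroendocrine and neuronal precursors, was at 0.73, 0.669 and 0.56 FPKM after SD and at 1.43, 1.48 and 1.23 in sham (-0.70, SE 0.11). The levels of Cbx2 and Insm1 are low, and their log2 fold changes are correspondingly damped. The mean of Cbx2 after SD, 0.45 FPKM, was under 0.5, against 1.43 in sham. Cbx2 may have been listed only through sham, the group where it is high, so its call is no support for a fall.

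Clcn6, a chloride-proton exchanger of late endosomes, was at 8.7, 8.52 and 9.25 FPKM after SD, at 14.3, 14 and 13.7 contralaterally and at 14.7, 12.7 and 13.5 in sham (-0.60, SE 0.06, adjusted p = 0.00393). Gja1, the astrocyte gap junction protein connexin 43, was at 13.8, 12.9 and 14.7 FPKM after SD, at 19.8, 18.2 and 16.5 contralaterally and at 20.1, 18.4 and 20.6 in sham (-0.50, SE 0.08, adjusted p = 0.0319). It was the 1 call among 14 astrocyte markers, whose median was -0.08. At an unadjusted p under 0.05, 0 of them were higher and 3 lower, Gja1 included, in 4 every SD library lay below every sham library, and 3 had a positive value. Gjb6, connexin 30, was at 14.4, 13.6 and 13.4 FPKM after SD and 15.4, 18.7 and 18.1 in sham (-0.32, adjusted p = 0.251), Aqp4, the astrocyte water channel, had a value of -0.14 (adjusted p = 0.593) and Gfap, the astrocyte filament, of -0.02 (adjusted p = 0.974). The part of astrocyte RNA as a whole in the change of Gja1 was not tested. Smarcd2, a subunit of SWI/SNF remodelling complexes, fell by 0.46 (SE 0.07).

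Mid1 (ENSMUSG00000035299.16, chromosome X, 169685199 to 170005736), a microtubule-bound ubiquitin ligase, was at 1.52, 1.63 and 1.47 FPKM in the SD libraries and at 1.38, 1.65 and 1.69 in the contralateral ones. Its sham libraries were at 5.34, 4.32 and 5.82 FPKM, so that both hemispheres of the stimulated mice lay below sham (-1.46, SE 0.11, adjusted p = 0.00098). The other 15 libraries of the series, NaCl sham mice included, all lay at 0.586 to 1.69 FPKM, so the optogenetic sham mice stand apart from every other group. Whether these 3 mice differ from the others in something other than SD was not tested, and the value is a difference between these mice and not shown to be an effect of SD. Stim1, the calcium sensor of the endoplasmic reticulum that opens Orai channels, was at 5.19, 4.45 and 4.3 FPKM after SD, 4.96, 5.2 and 5.37 contralaterally and 7.78, 7.4 and 7.13 in sham (-0.63, SE 0.08, adjusted p = 0.00833). Ucma, a matrix protein of cartilage, was at 0.287 to 0.314 FPKM after SD, 0.297 to 0.461 contralaterally and 0.983 to 1.01 in sham (-0.90, SE 0.10). It passed the filter of 0.5 FPKM only through sham, the group where it is high, so its call is no support for a fall. With a mean of at least 2 FPKM required it was not tested. Mid1, Stim1, Ucma and Clcn6 stayed called in each of the 9 fits without a library, which for Ucma carries the same limit. The adjusted p of Hes1 reached 0.0869 and of Insm1 0.131 without sham replicate 2, of Cbx2 0.0797 without SD replicate 3 and of Gja1 0.132 without sham replicate 1. Smarcd2 passed in 0 of those 9 fits, with adjusted p values of 0.0551 to 0.155.

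**Figure D4:**
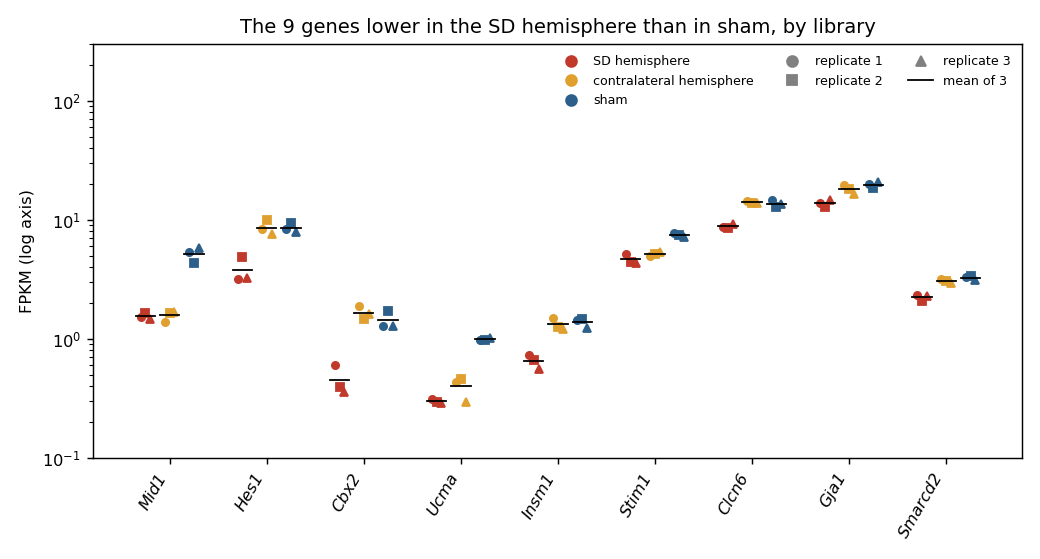
FPKM (log axis) of the 9 genes that fell, by library, in the order of their log2 fold change. Points are libraries and black lines means of 3 mice. Contralateral libraries lie with sham in Hes1, Cbx2, Insm1, Clcn6, Gja1 and Smarcd2 and with the SD libraries in Mid1, Stim1 and Ucma.

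Glial, vascular and inflammatory lists held few calls. In limma 0 genes were called and 0 had an unadjusted p under 0.05 among 18 microglia, 9 reactive astrocyte, 8 oligodendrocyte precursor, 10 pericyte and smooth muscle, and 11 meningeal markers, and the same held for 11 genes of the inflammasome, pannexin and HMGB1 list. Hmgb1, a nuclear protein released by stressed cells, was at 28.7, 26.8 and 27.4 FPKM after SD and 24.8, 27.1 and 26.6 in sham (0.08, adjusted p = 0.883). Of 13 oligodendrocyte and myelin markers 0 were called, 0 were higher and 3 lower at an unadjusted p under 0.05, 1 had a positive log2 fold change and the median was -0.18. Of 19 endothelial markers 0 were called and 1 was lower at that p. Interferon-stimulated genes had 0 called of 14, 0 higher and 3 lower at that p, 1 positive value and a median of -0.23. Some chemokine genes were below the filter and not tested. Ccl7, which attracts monocytes, was at 1.03, 0.682 and 0.742 FPKM after SD and at 0.0856, 0.221 and 0.248 in sham, and was listed at 0 in all 3 contralateral libraries. Cxcl1, which attracts neutrophils, was at 0.491, 0.497 and 0.642 FPKM after SD and at 0.0737, 0.0471 and 0.0709 in sham. With no filter beyond the listing both were called, so that 3 of 19 cytokine, chemokine and NF-kappaB genes were higher, and with a mean of at least 2 FPKM 0 of 7 were. The sham libraries of both genes were under 0.5 FPKM. They may have been listed only through the SD group, where they are high, so these calls are no support for a rise.

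Red blood cell genes were lower after SD in value, though 0 of 6 passed in limma and 5 had an unadjusted p under 0.05. Hbb-bs, an adult beta globin nearly identical to Hbb-bt, was at 68.5, 105 and 121 FPKM after SD, at 95.6, 99.9 and 140 contralaterally and at 164, 147 and 353 in sham. The SD and contralateral libraries, from the same mice, lay below sham, and sham replicate 3 was far above the other sham libraries. The log2 fold change was -1.09 (SE 0.33, adjusted p = 0.399). Summed over the list, the SD libraries were at 278, 369 and 396 FPKM and the sham libraries at 532, 485 and 1108, and the part of blood content in other results was not tested.

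The same 62 genes were set beside the KCl experiment, in which focal KCl set off SD in wild-type C57BL/6 mice and sham mice received NaCl. These mice were also aged 7 to 8 weeks, and those given KCl had 4 SDs over 2 h, 30 min apart. That experiment has its own 9 libraries and called 9 of 12960 genes (0.0694%), 7 of which were also called after optogenetic SD, all among the 53 rises. Of the 53, 52 had a KCl effect of the same direction and 51 a smaller one. The genes were chosen by the optogenetic effect, so that a smaller value in the other experiment is no test. Npas4 had a log2 fold change of 5.93 against 3.68 with KCl (95% interval of the difference -0.22 to 4.72), Fos 3.96 against 2.78 (-0.09 to 2.45) and Ptgs2 3.76 against 2.96 (-0.44 to 2.05). Arc stood at 3.14 against 2.02 (0.38 to 1.86), Egr1 at 1.92 against 1.20 (0.06 to 1.39) and Cited2 at 1.29 in both (-0.49 to 0.49). These intervals are not adjusted for the number of genes. Mean FPKM after SD, optogenetic and then KCl, was 226 and 192 for Npas4, 179 and 194 for Fos, and 61.9 and 61.2 for Ptgs2. For Arc it was 181 and 164, for Egr1 206 and 213 and for Cited2 13 and 25.1. In sham the means were 4.44 and 26.9, 12.7 and 31, 4.47 and 7.98, 20.1 and 40.9, 54.5 and 92, and 5.09 and 10. Npas4 ran from 1.81 to 51.4 FPKM in NaCl sham. The part of sham levels in the smaller KCl values was not tested.

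The difference itself was tested as an interaction over all 18 libraries. In limma 0 of 12894 genes passed, and 715 (5.55%) had an unadjusted p under 0.05. Of the 53 rises 9 were among these, and of the 9 falls 4 (Mid1, Gja1, Clcn6 and Ucma). Those genes were chosen by the optogenetic effect, which is part of the difference, so these counts are no test. The smallest p belonged to Mid1, with a difference of -1.41 (95% interval -1.85 to -0.98, adjusted p = 0.0651). In the KCl experiment its level was low in every library, at 0.587 to 0.945 FPKM after SD and 0.657 to 0.881 in NaCl sham, and the optogenetic sham libraries were the highest of all 18. The difference passed without optogenetic sham replicate 2 (adjusted p = 0.0449), without KCl SD replicate 3 (0.0403), without KCl contralateral replicate 2 (0.041) and without KCl contralateral replicate 3 (0.021). Chp1 followed, at 0.33 against -0.07 (difference 0.40, 0.25 to 0.55, adjusted p = 0.32), and then Zfp27, a zinc finger gene, with a difference of 0.80 (adjusted p = 0.816). Gja1 was at -0.50 against 0.11 (-0.96 to -0.26), Hes1 at -1.11 against -0.69 (-1.05 to 0.22) and Stim1 at -0.63 against -0.55 (-0.65 to 0.48).

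**Figure D5:**
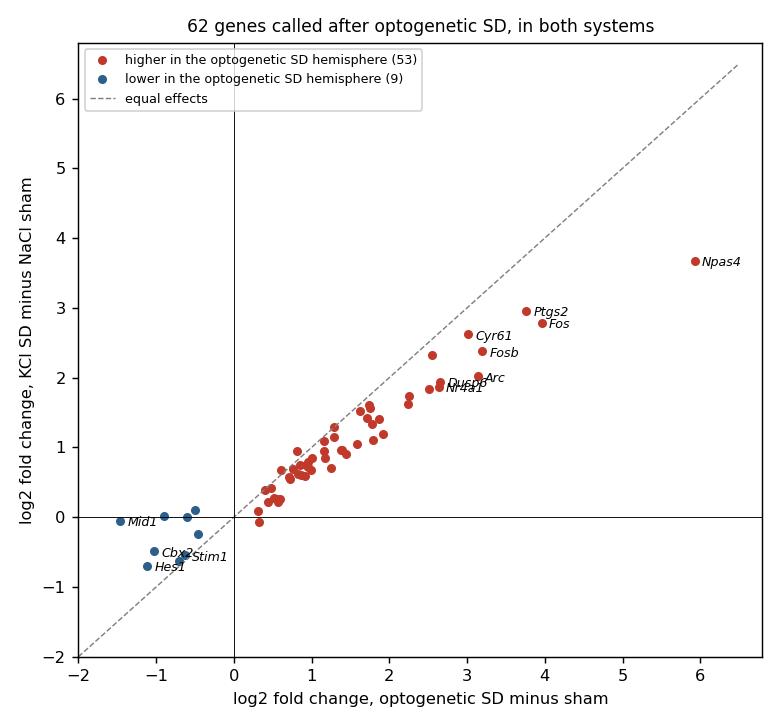
Log2 fold change of the 62 called genes after optogenetic SD (horizontal) and after KCl SD (vertical), each against its own sham, 1 point per gene, with the line of equal effects dashed. Most genes that rose lie between that line and 0, and Mid1 lies near 0 on the KCl axis.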

How the data were processed

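Poly(A) RNA of cortex was sequenced from stranded libraries on an Illumina NovaSeq, per the labels' protocols. The authors deposited FPKM per gene and library, made with StringTie on GRCm38 per the submitters' processing notes; versions and filters are not given in the sources used here. FPKM carry no counts, so no counting interval can be given. The deposited fold change and p columns were not used.

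Python 3.11.15 with pandas 2.3.3 read the tables. Optogenetic libraries (9 in 3 groups) were fitted with limma 3.58.1 in R 4.3.3 on log2(FPKM + 0.5), with a prior variance following the mean, for genes averaging 0.5 FPKM or more across them. The contralateral libraries come from the SD mice and were fitted as independent; they add to the estimate of spread. The KCl system was fitted likewise, and the difference as an interaction over 18 libraries. Exons and transcript lengths came from GENCODE M21, gene spans from the deposited loci, promoters from RefSeq. Named are the 15 largest rises, the 10 largest falls, up to 4 called members per list and a few fixed genes; other genes were named after their values were seen. Members and lists were chosen with earlier results of these data known. Sham mice share only a number with SD mice. Deviations of same-numbered SD and sham libraries correlated at -0.0767, -0.186 and -0.134. Those of SD and contralateral libraries of the same mouse correlated at 0.137, -0.0899 and 0.015, so such correlations cannot show whether libraries are paired. Alternatives were other pseudocounts (0.1 and 1), filters, scalings, priors, blocks, fewer libraries, a 1.5-fold threshold and leaving out each library. Adjusted p values are Benjamini-Hochberg values from limma. Some named genes are not reported here.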

Additional observations from a re-analysis of the deposited data

How the results depend on the processing

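All 53 rises and 9 falls kept their direction under every alternative in which they were tested. Their SD and sham libraries do not overlap, so leaving out a library or changing the pseudocount could not reverse them. The kept direction is therefore no added support. Of the uncalled genes, the log2 fold change of Gfap ran from -0.1193 to 0.09848 and that of Cacna1a from -0.1473 to 0.02664 when 1 library was left out. The 62 calls became 63 with pseudocount 0.1, 61 with pseudocount 1, 68 with median-of-ratios scaling, 59 with quantile normalization and 56 with a constant prior variance. A mean of at least 2 FPKM left 4 of them untested. The fit of the 6 SD and sham libraries alone called 41 genes, 36 higher and 5 lower, with fewer residual degrees of freedom. Against a 1.5-fold change 16 genes passed, 15 higher and 1 lower. Leaving out 1 library gave 38 to 62 calls, 33 to 55 higher and 5 to 10 lower. The replicate block called 57 genes, 50 higher and 7 lower, 53 of them among the 62. Since sham mice share only a number with SD mice, a call lost there is not read as a weaker effect. With mouse as a random block (correlation 0.264) 63 genes passed, 60 of them among the 62, and Rnd3 (adjusted p = 0.0506) and Ctgf (0.0514) did not. The difference between the optogenetic and KCl effects called 0 genes with pseudocount 0.1 and under the replicate block, 1 with pseudocount 1 (Mid1, adjusted p = 0.0148) and 0 to 2 without a library. The causes of these changes were not tested. Smarcd2 passed in 0 and Fosb, Nptx2, Flrt3, Rnd3, Ctgf, Pik3r1 and Cry2 in 1 of the 9 fits without a library.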

Other observations

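Phc3, a Polycomb subunit, was lower in both hemispheres of the stimulated mice than in sham, with SD replicate 3 close to sham. It was at 1.14, 1.03 and 4.11 FPKM in the SD libraries, at 0.969, 0.905 and 1.12 in the contralateral ones and at 5.62, 6.19 and 4.26 in sham. In limma the log2 fold change was -1.36 (SE 0.37) with an adjusted p of 0.319. In the KCl experiment its log2 fold change was -1.78. Without a library the difference between systems called genes other than Mid1 in 3 fits: Pigk without optogenetic sham replicate 1 (adjusted p = 0.00684), Macrod2 without NaCl sham replicate 3 (3.99e-05) and Ucma without KCl SD replicate 3 (0.0403). Pigk, a subunit of the GPI transamidase, was at 7.54, 3.27 and 2.96 FPKM in the sham libraries and at 7.67, 6.91 and 8.07 after SD.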
